A study of Mus musculus with 28 samples.

Results

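Kinesins are motor proteins that walk along microtubules. The members described here are all genes of the exonic count table whose symbol is Kif followed by a number and at most 1 letter a to c, or Kifc followed by a number. There were 40 such genes of 23453, and 39 of them were also in the intronic table of 20422 genes, Kif2b being the exception. By their known roles 17 were set down as transport kinesins, 13 as mitotic kinesins and 10 as other kinesins. The counts came from 28 single cells of the mouse cortex. By the sample labels, 8 astrocytes and 12 neurons were from primary culture of C57/BL6 animals and were picked with a pipette, and 8 interneurons were taken by patch clamp pipette from acute prefrontal slices of C57/BL6/N animals. The labels name no treatment, and the protocol text for the cultured cells mentions a 3-month old male mouse and fixed sections. The published methods instead describe mouse neuron and astrocyte cultures made from embryos of both sexes, and such a male as the source of brain sections. The labels name no animal or culture for any single cell.

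The column headers of the 2 tables are codes, none of which (0 of 28) occurs in a sample label. Cells were therefore not named by type, and no test or replicate error is given. The codes fall into BRP564 to BRP572 (8 columns), BRP528 to BRP543 (12 columns) and F (8 columns). These numbers equal those of the labelled astrocytes, neurons and interneurons, but no label or header ties a code to a sample. Levels of cell type markers differed between the runs and are given below, but were not used to name cells. Values are given for each run of codes as lowest, median and highest cell. The 7 astrocyte markers summed to 1295 to 5435 CPM (exonic counts scaled to a total of 1000000 in each cell) in BRP564 to BRP572, to 191.3 to 2461 in BRP528 to BRP543 and to 0 to 4352 in F. Slc1a2, a glutamate transporter, carried nearly all of the highest sum in both other runs (2459 of 2461 CPM in BRP538, and 4350 of 4352 in F7). Its median was 803.6 CPM in BRP528 to BRP543 against 191.7 in BRP564 to BRP572, while in BRP528 to BRP543 the medians of Aqp4 and Gfap were 0.981 and 0.0205 CPM and that of Aldh1l1 was 0. Within that run, BRP528 and BRP529 held other astrocyte markers as well. They had Aqp4 at 141.6 and 418.4 CPM, Slc1a3 at 128.9 and 282.5, Aldoc at 589.4 and 271.2 and Gfap at 114.9 and 7.43. The 6 neuron markers summed to 299.5 to 800.8, 4737 to 8469 and 1608 to 16746 CPM in the same order, and Rbfox3, a nuclear marker of mature neurons, stayed under 1 CPM in all 8 columns BRP564 to BRP572. It was at 21.4 to 287.7 CPM in BRP528 to BRP543, but under 1 CPM in 6 of 8 F columns (median 0.125, highest 8.87 CPM). The 3 markers of GABA neurons summed to 0 to 42.6, 0.0572 to 2714 and 478.1 to 11671 CPM. In BRP528 to BRP543 the highest sum was that of BRP528, and the median was 36.3 CPM. In F11 and F12 the sum was mostly Slc32a1, at 443.5 and 617.6 CPM. Gad1 was at 18.9 and 0.739 CPM there, and Gad2 at 15.7 and 0. The 2 markers of glutamate neurons, Slc17a7 and Slc17a6, summed to 0 to 133.4, 0 to 1021 (median 220.1) and 0 to 4.92 CPM. In BRP528 to BRP543 each reached 1 CPM in 11 of 12 columns, with BRP528 at 0 for both. F7 held 4352 CPM of astrocyte and 3387 CPM of oligodendrocyte lineage markers, and F16 held 2093 CPM of microglia markers. Each of these 3 sums rested mostly on 1 gene, with Slc1a2 at 4350 CPM and Olig1 at 3210 CPM in F7 and Csf1r at 2093 CPM in F16. Gfap and Slc1a3 were at 1.38 and 0.920 CPM in F7. The part of other cells' RNA in the kinesin values of these cells was not tested.

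Exonic totals were 12969692 to 19798892 counts in BRP564 to BRP572, 17483754 to 26770944 in BRP528 to BRP543 and 838343 to 14831505 in F. A count of 0 allows up to 3 counts, which is 0.1121 to 0.2313 CPM in the BRP cells and 0.2023 to 3.578 CPM in the F cells. A gene was called expressed at 1 CPM or more, so in F12, F16 and F24, where 3 counts exceed 1 CPM, a 0 does not place a gene under that level. In F16, 1 count is 1.193 CPM and makes a gene expressed. Its 2 mitotic kinesins, Kif15 and Kifc1, had 1 count each. The reads are amplified, so such floors and all intervals here cover counting error only. F11 and F12 stood apart from all other F columns. Of the 1594 and 1139 genes with at least 10 counts in them, 1022 were the same, 89.7% of the smaller number. Over genes with at least 10 counts in either cell of a pair, log2(CPM + 1) had r = 0.944 between these 2, against -0.496 to 0.0550 for the other 27 pairs of F columns, which describes genes and not replicates. F values are therefore also given without F12.

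Transport kinesins carry vesicles, organelles, RNA and protein complexes along axons and dendrites. Kinesin-1 heavy chains (Kif5a, Kif5b, Kif5c) haul mitochondria and many vesicles, and kinesin-2 (Kif3a with Kif3b or Kif3c) builds cilia. Kinesin-3 (Kif1a, Kif1b) carries synaptic vesicle precursors and mitochondria. Mitotic kinesins build and focus the spindle, move chromosomes and help to split the cell, and mature neurons have left the cell cycle. Many cell cycle genes carry a cell cycle homology region (CHR) near the start of transcription, often downstream of a CCAAT box.

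The promoter windows below are shown because they hold, or lack, these letters. RefSeq promoter windows on GRCm38.p6, from 250 bases before to 50 bases after the start, were at hand for 32 of the 40 genes. Kif13b, Kif19a, Kif20a, Kif21b, Kif5a, Kif5b, Kifc2 and Kifc3 had none. The CHR letters TTTGAA, read on both strands and so also as TTCAAA, were in the windows of 10 of 12 mitotic kinesins (83.3%), 1 of 11 transport kinesins (Kif1a, 9.09%) and 2 of 9 other kinesins (Kif26b and Kif27, 22.2%). Over all 27025 genes with a window the share was 20.2%. The letters CCAAT or ATTGG were in 8 of 12 mitotic (66.7%), 3 of 11 transport (27.3%) and 4 of 9 other kinesins (44.4%), against 41.1% of all genes. The 2 motifs do not overlap in their letters, no test of these shares was made, and a match is a description of the window, not a site of binding. The lines give 80 bases before to 20 bases from the RefSeq start, 5′ to 3′ on the gene's strand, with these letters in capitals.
Kif11 (chr19:37376302-37376401, plus strand): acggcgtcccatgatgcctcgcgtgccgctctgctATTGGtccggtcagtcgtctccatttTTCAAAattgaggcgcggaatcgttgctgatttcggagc
Kif15 (chr9:122951001-122951100, plus strand): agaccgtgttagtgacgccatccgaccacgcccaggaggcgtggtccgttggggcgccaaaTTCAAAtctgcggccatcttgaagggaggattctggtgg
Kif22 (chr7:127042401-127042500, minus strand): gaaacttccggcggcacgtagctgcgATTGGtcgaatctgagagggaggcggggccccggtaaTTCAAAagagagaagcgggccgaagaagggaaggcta
Kif23 (chr9:61946780-61946879, minus strand): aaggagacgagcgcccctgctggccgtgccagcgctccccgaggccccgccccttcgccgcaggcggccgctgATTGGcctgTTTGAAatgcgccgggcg
Kif18b (chr11:102925105-102925204, minus strand): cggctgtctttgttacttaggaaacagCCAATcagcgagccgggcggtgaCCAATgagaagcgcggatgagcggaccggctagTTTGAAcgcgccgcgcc
In Kif11, the plus-end motor that pushes spindle poles apart, the CHR letters began at -19 and the CCAAT letters at -45. Kif15, a second motor of the bipolar spindle, had CHR letters at -19 and -234 and no CCAAT letters in the window. Kif22, a chromosome-arm motor, had CHR letters at -17 and -215 and CCAAT letters at -54 and -233. The farther matches lie outside the lines shown. Not all CHR matches were near the start, as Kif14 and Kif2c, which are not shown, had theirs only at -228 and -103. Kif23, a part of the centralspindlin complex of cytokinesis, had them at 3 and -7, and Kif18b, a motor that trims astral microtubules, had CHR letters at 4 with CCAAT letters at -53 and -30. For comparison, a member of the other class and 3 transport members are shown.
Kif26b (chr1:178529045-178529144, plus strand): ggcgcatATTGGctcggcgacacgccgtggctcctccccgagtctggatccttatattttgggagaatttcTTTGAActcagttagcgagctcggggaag
Kif5c (chr2:49619206-49619305, plus strand): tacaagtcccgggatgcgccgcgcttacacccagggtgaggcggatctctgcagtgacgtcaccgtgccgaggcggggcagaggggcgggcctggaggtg
Kif3a (chr11:53567289-53567388, plus strand): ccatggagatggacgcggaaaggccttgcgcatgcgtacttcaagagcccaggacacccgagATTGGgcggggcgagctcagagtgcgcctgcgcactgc
Kif1c (chr11:70700468-70700567, plus strand): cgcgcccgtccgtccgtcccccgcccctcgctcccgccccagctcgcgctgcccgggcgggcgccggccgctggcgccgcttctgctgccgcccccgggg
Kif26b, a kinesin-11 known from kidney development that binds microtubules but is thought not to walk, held CHR letters at -9 and CCAAT letters at -73. Neither motif was in the 100 bases shown of Kif5c or Kif1c, and Kif3a held CCAAT letters at -18 and no CHR letters.

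The 40 kinesins drew 1486014 exonic counts over the 28 cells, of which transport kinesins took 94.4%, mitotic kinesins 1.94% and other kinesins 3.64%. The 3 Kif5 genes alone took 51.0%, and the 7 genes of the kinesin-3 family 25.0%. Kinesins were 0.139% to 0.262% of a cell's exonic counts in BRP564 to BRP572 (median 0.223%), 0.245% to 0.507% in BRP528 to BRP543 (median 0.368%) and 0.0534% to 1.57% in F (median 0.290%, or 0.242% without F12). F11 was highest at 1.57% (95% Wilson interval 1.55% to 1.58%) with F12 beside it at 1.56%, and F16 was lowest at 0.0534% (0.0487% to 0.0586%).

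**Figure D1:**
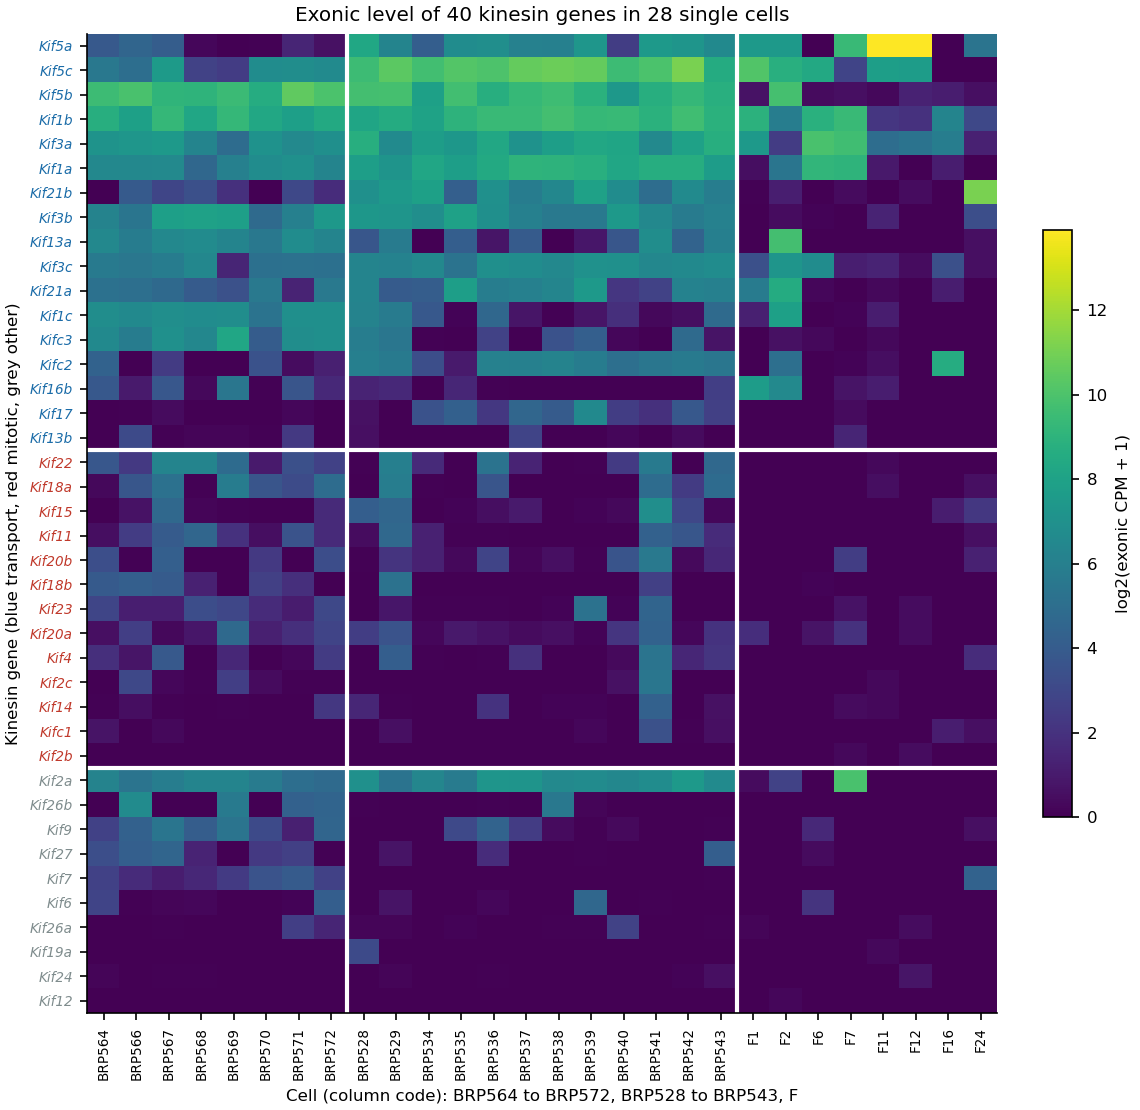
Exonic level of each kinesin gene (rows, ordered by mean within role) in each cell (columns) as log2(CPM + 1), with white lines between roles and between runs of column codes. The upper block of transport genes is mostly filled across the BRP columns, with gaps at genes such as Kif13b and Kif17, and broken in the F columns. The mitotic block is near 0 in the F columns, patchy in the BRP columns and fullest in BRP541.

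At 1 CPM or more, 16 of the 40 kinesins were expressed in at least 14 of the 28 cells, against 34.8% of all genes of the table. By role these were 14 of 17 transport kinesins (82.4%), 1 of 13 mitotic kinesins (Kif22) and 1 of 10 other kinesins (Kif2a, a microtubule depolymerase of neurites and spindles). Kif1b and Kif3a were expressed in all 28 cells. Kif12, Kif24 and Kif2b reached 1 CPM in no cell, with 2, 21 and 3 counts in all, and Kif19a, a motor of the ciliary tip, did so in 1 cell. The number of kinesins expressed per cell was 20 to 29 in BRP564 to BRP572 (median 25.5), 15 to 26 in BRP528 to BRP543 (median 19) and 5 to 14 in F (median 9, and 9 without F12). After thinning of every cell to 800000 counts, with 1 count as the limit, the medians were 25.5, 19 and 9.5. F cells also expressed fewer genes in all, 1845 to 4372 against 7581 to 10852 in the BRP cells.

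**Figure D2:**
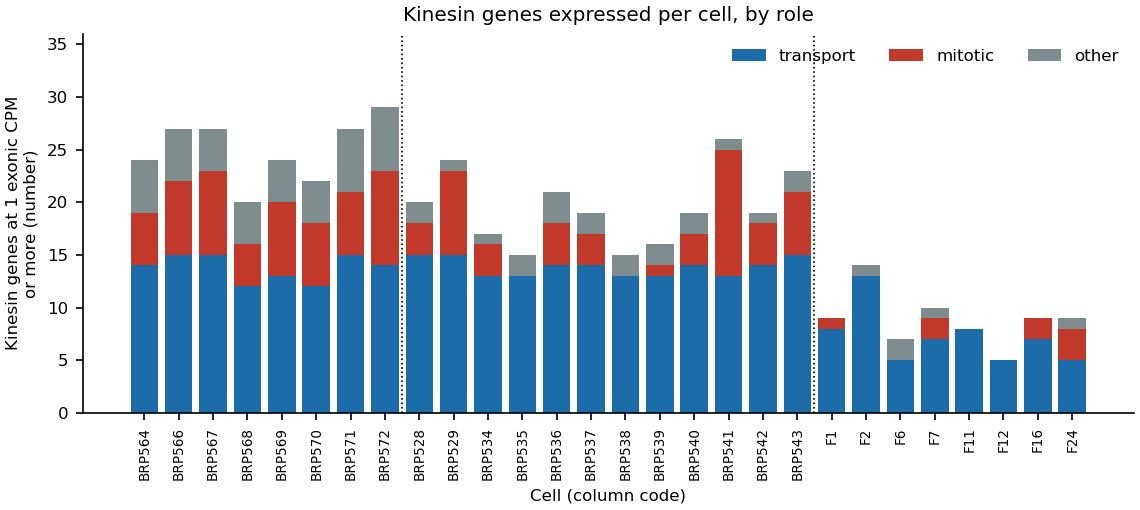
Number of kinesin genes at 1 exonic CPM or more in each cell, stacked by role, with dotted lines between the runs of column codes. Transport kinesins number 12 to 15 in every BRP cell and 5 to 13 in the F cells, and BRP541 has 12 mitotic kinesins.

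Among transport kinesins, 12 to 15 of 17 were expressed in each cell of BRP564 to BRP572, 13 to 15 in BRP528 to BRP543 and 5 to 13 in F. Every cell of BRP564 to BRP572 expressed 11 of them, and every cell of BRP528 to BRP543 expressed 10, which are 64.7% and 58.8% of the 17. Of all 23453 genes, 27.1% and 19.2% were expressed in every cell of these runs, and 0.409% in every F cell. In F, Kif1b and Kif3a were in all 8 cells and no other kinesin was. Their lowest counts there were 8 for Kif1b in F12 and 3 for Kif3a in F24. The members that filled the transport pool differed between runs. Levels per kb of merged exon take every annotated exon as used and evenly covered, which was not tested. On this scale Kif5b led in BRP564 to BRP572 with a median of 90.4 CPM per kb, followed by Kif3a with 35.7 and Kif3b with 21.7. In BRP528 to BRP543, Kif5c led with a median of 155.2 CPM per kb, followed by Kif5b with 67.0 and Kif3a with 65.4. The cell ranges of these neighbours overlapped in both runs, except those of Kif5b and Kif3a in BRP564 to BRP572, 48.5 to 180.3 against 8.04 to 48.8 CPM per kb, which met only at their ends. The order below the leader of each run depends on this scale. By median CPM, Kif1b was above Kif3a in BRP564 to BRP572 (335.0 against 128.1). It was also above Kif5b in BRP528 to BRP543 (574.2 against 534.4).

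Kif5b, the kinesin-1 heavy chain found in most tissues, was at 387.3 to 1439 CPM in BRP564 to BRP572 (median 721.4) and at 173.0 to 899.9 CPM in BRP528 to BRP543 (median 534.4). In F it was at 891.3 CPM in F2 and between 0.228 and 1.48 CPM in the other 7 cells. The BRP runs thus overlapped for Kif5b, and F2 alone among the F cells reached their level. Kif5c, a neuronal heavy chain (chr2:49619298-49774778, plus strand, GRCm38), was at 4.55 to 187.3 CPM in BRP564 to BRP572 (median 72.6) and at 381.7 to 2228 CPM in BRP528 to BRP543 (median 1109). The F cells ran from 0 in F16 and F24 to 1134 CPM in F1, with a median of 215.1 CPM (223.0 without F12). All 12 columns BRP528 to BRP543 lay above all 8 columns BRP564 to BRP572 for Kif5c.

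Kif5a, the heavy chain best known from axons and from inherited spastic paraplegia (chr10:127225696-127263348, minus strand), had the widest spread of all kinesins. It was at 0 to 22.1 CPM in BRP564 to BRP572 (median 1.14) and at 4.8 to 308.6 CPM in BRP528 to BRP543 (median 102.2), so that these runs overlapped. In F it was at 180.1 CPM in F1, 175.4 in F2, 0 in F6, 696.6 in F7, 15385 in F11, 15315 in F12, 0 in F16 and 40.2 in F24. F11 and F12 thus lay more than an order of magnitude above every other cell, and F11 alone held 45.6% of all Kif5a exonic counts. Without F12, the F median was 175.4 CPM in place of 177.7.

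Shares within the Kif5 genes were taken per kb of exon in the 26 cells with at least 100 Kif5 counts. F16 had 1 and F24 had 86, and both were left out. Kif5b was the leading heavy chain in 8 of 8 cells of BRP564 to BRP572, with a share of 70.4% to 99.3% (median 91.7%). Kif5c led in 10 of 12 cells of BRP528 to BRP543, with a share of 40.7% to 82.3% (median 69.0%), and Kif5b led in BRP528 and BRP543. Kif5a stayed at 17.4% or less in all 20 BRP cells. Of the 6 F cells used, 3 were led by Kif5a (F7, F11, F12), 2 by Kif5c (F1, F6) and 1 by Kif5b (F2). F11 and F12 were alike, and the labels do not say whether they are separate cells. Without F12, Kif5a led in 2 of 5. In F6, 4092 of 4096 Kif5 counts were Kif5c (99.9%, interval 99.8% to 100.0%), and in F7, 6055 of 6114 were Kif5a (99.04%, interval 98.8% to 99.3%). A share of at least 90% for a single heavy chain was found in 4 of these 6 F cells (3 of 5 without F12), in 5 of 8 cells of BRP564 to BRP572 and in 0 of 12 cells of BRP528 to BRP543.

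**Figure D3:**
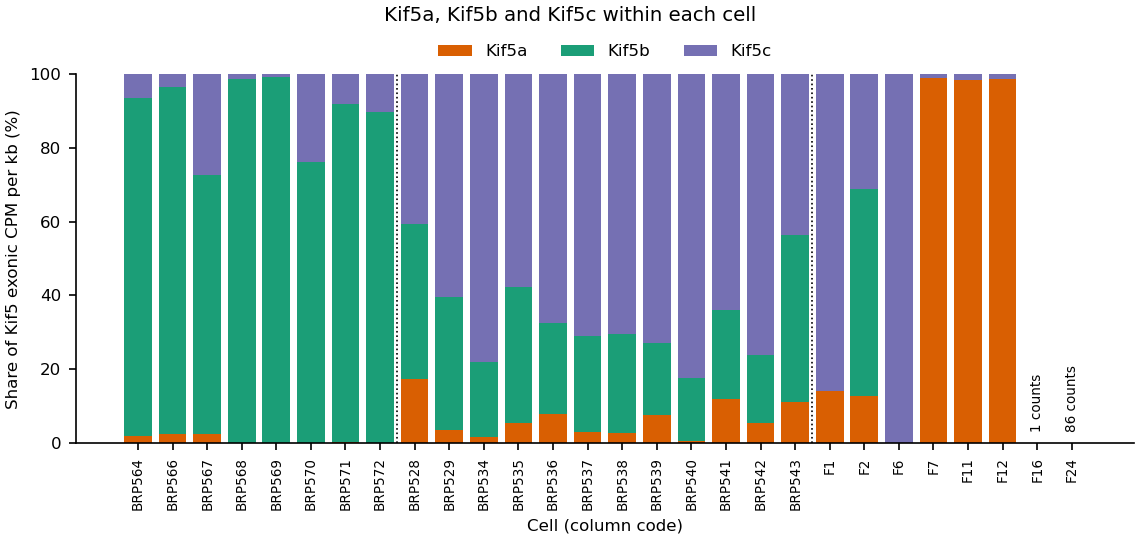
Share of Kif5a, Kif5b and Kif5c in the summed exonic CPM per kb of the 3 genes, in percent, for each cell; F16 and F24, with 1 and 86 Kif5 counts, have no bar. Kif5b fills 70.4% to 99.3% of the bars BRP564 to BRP572, Kif5c most of the bars BRP528 to BRP543, and the F bars are led by different genes.

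Kif1b, a kinesin-3 whose isoforms carry mitochondria and synaptic vesicle precursors (chr4:149176319-149307693, minus strand), was at 229.5 to 613.9 CPM in BRP564 to BRP572 (median 335.0), at 260.9 to 846.9 CPM in BRP528 to BRP543 (median 574.2) and at 2.96 to 695.4 CPM in F (median 67.0). The BRP runs overlapped over most of their ranges. Its relative Kif1a, the main carrier of synaptic vesicle precursors and dense core vesicles, was at 23.8 to 125.8 CPM in BRP564 to BRP572 (median 88.3) and at 147.8 to 522.4 CPM in BRP528 to BRP543 (median 323.2), with no overlap. In F, Kif1a was at 558.7 CPM in F6, 524.6 in F7 and 41.7 in F2, and at 0 to 1.19 CPM in the other 5 cells. Kif1c, which serves Golgi and integrin transport, ran the other way in its medians, 110.6 CPM (38.1 to 121.9) against 1.68 CPM (0.0448 to 73.2), but the ranges overlapped.

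Kif21b, a dendritic kinesin-4 that also slows microtubule growth, was at 0 to 14.5 CPM in BRP564 to BRP572 (median 4.61) and at 17.7 to 245.2 CPM in BRP528 to BRP543 (median 103.4). In F it was at 2245 CPM in F24, at 1.26 CPM in F2 and under 1 CPM in the other 6. Of the 37 kinesins expressed in at least 1 BRP cell, Kif1a, Kif21b and Kif5c were the 3 (8.11%) whose range in BRP528 to BRP543 lay wholly above that in BRP564 to BRP572. Of all 15226 genes expressed in a BRP cell, 413 (2.71%) did so. In the opposite direction it was 1 kinesin of 37 (2.70%), Kif7, against 524 of all genes (3.44%). These 4 genes, other than Kif5c, were singled out after their values were seen, and no test of the shares was made.

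Other transport members differed in median with ranges that overlapped. Kifc3, a minus-end motor of epithelial junctions and Golgi, was at 15.4 to 305.2 CPM in BRP564 to BRP572 and at 0 to 58.8 CPM in BRP528 to BRP543, and Kif13a, an endosome motor, was at 46.1 to 108.1 and 0 to 110.7 CPM. Kif17, the dendritic carrier of NMDA receptor subunits, was under 1 CPM in all 8 cells of BRP564 to BRP572 and in all F cells, and was expressed in 10 of 12 cells of BRP528 to BRP543 with up to 95.4 CPM. Kifc2, a neuronal minus-end motor, was expressed in 11 of 12 cells of BRP528 to BRP543 (median 50.4 CPM) and in 4 of 8 of BRP564 to BRP572 (median 0.857 CPM), and its highest value was 384.1 CPM in F16. Kif16b, an endosome motor, was at 0.0505 to 42.4, 0 to 5.05 and 0 to 204.8 CPM in BRP564 to BRP572, BRP528 to BRP543 and F. Kif21a, an axonal kinesin-4, was expressed in all 20 BRP cells with 1.58 to 224.7 CPM. Kif3b and Kif3c, the partners of Kif3a, were expressed in all 20 BRP cells too, with 27.3 to 246.3 and 1.70 to 132.6 CPM, but in F Kif3b reached 1 CPM in 2 cells only and Kif3c in 6. Kif13b, a relative of Kif13a, was expressed in 4 of the 28 cells, with at most 7.64 CPM.

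In 3 of 8 F cells (F11, F12 and F24, or 2 of 7 without F12), and in 0 of 20 BRP cells, the leading kinesin took at least 90% of the kinesin pool. The leading member took 25.0% to 98.2% of a cell's summed kinesin CPM per kb (median 72.6%, or 64.2% without F12), against 19.2% to 53.7% in BRP564 to BRP572 (median 30.7%) and 21.7% to 46.9% in BRP528 to BRP543 (median 34.5%). The leaders were Kif5c in F1, Kif5b in F2, Kif3a in F6 and F7, Kif5a in F11 and F12, Kifc2 in F16 and Kif21b in F24, so 6 genes led in 8 cells. F16 had only 448 exonic kinesin counts behind its Kifc2 share of 81.0%. F cells also expressed fewer genes in all, 1845 to 4372 against 7581 to 10852 in the BRP cells. No such leading share was taken for other gene families, so these values do not show a trait of kinesins. In BRP564 to BRP572 the leader was Kif5b in every cell, and in BRP528 to BRP543 it was Kif5c in 10 cells and Kif3a in BRP528 and BRP543. Some leaders depend on the scale per kb. By CPM alone, Kif1b was above Kif5b in BRP567 (613.9 against 541.1) and above Kif3a in BRP543 (466.1 against 423.4). Likewise, Kif5b was above Kif3a in BRP528 (850.2 against 417.4), and Kif2a was above Kif3a in F7 (977.6 against 797.2). In F2, the F cell with most expressed kinesins (14), Kif13a reached 874.7 CPM, and it was at 0.473 CPM or less in the other F cells. In F7, Kif2a reached 977.6 CPM, its highest value in any cell.

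Kinesins work with light chains, adaptors and microtubule proteins, and dynein carries cargo the other way. Of a list of 19 such partners, 18 had a row. BRP564 to BRP572 expressed 12 to 16 of the 18 per cell with a sum of 739.0 to 1115 CPM, BRP528 to BRP543 expressed 14 to 17 with 2113 to 2977 CPM, and F expressed 2 to 13 with 45.8 to 3701 CPM. Kifap3, the cargo-binding subunit of kinesin-2, was at 65.8 to 178.2 CPM in BRP564 to BRP572 and at 218.3 to 677.5 CPM in BRP528 to BRP543. Map7d2, a microtubule protein that recruits kinesin-1, was at 0 to 85.4 and 187.0 to 741.6 CPM, and Dync1i1, a neuronal intermediate chain of dynein, was at 0 to 4.07 and 17.8 to 359.9 CPM. The ranges of these 3 partners, named after their values were seen, did not overlap between the BRP runs. Of the 18 partners, 3 lay wholly higher in BRP528 to BRP543 and 0 wholly higher in BRP564 to BRP572, against 2.71% and 3.44% of all genes. Klc1, the main kinesin light chain of brain, was at 12.4 to 187.9 and 160.6 to 363.2 CPM, which overlapped, while Dync1i2 had the higher median in BRP564 to BRP572, 202.4 against 100.0 CPM, also with overlap. Within a run, Kif5c against Klc1 had rho = -0.262 over the 8 cells BRP564 to BRP572 and 0.042 over the 12 cells BRP528 to BRP543, and Kif3a against Kifap3 had rho = -0.310 and -0.161. Kif5c against Kif1a had rho = 0.810 and 0.629. These are descriptions over few cells, which share 1 scaling by the exonic total.

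Mitotic kinesins were low in most cells and concentrated in a few. Their number per cell was 4 to 9 of 13 in BRP564 to BRP572 (median 6.5), 0 to 12 in BRP528 to BRP543 (median 3) and 0 to 3 in F (median 0.5, or 1 without F12). Their summed level was 26.3 to 199.1 CPM (median 61.0), 1.17 to 424.0 CPM (median 24.9) and 0 to 8.98 CPM (median 1.76). Kif22 had the highest median over the 28 cells, 1.33 CPM, followed by Kif20a with 0.726 and Kif11 with 0.416. Kif22 was at 1.01 to 76.8 CPM in BRP564 to BRP572 and was expressed in all 8 cells. It was at 0 to 62.1 CPM in BRP528 to BRP543, where 7 of 12 cells expressed it, and at 0.228 CPM or less in F. Kif20a, the kinesin of the central spindle, was at 0.247 to 26.3, 0.0818 to 20.0 and 0 to 2.99 CPM in the 3 runs, and 1271 of its exon bases also belong to Cdc23 on the other strand. Kif11 was at 0.434 to 23.1, 0 to 25.1 and 0 to 0.473 CPM. All 3 genes overlapped between the BRP runs. Of the other 10 mitotic members, Kif15, Kif18a, Kif18b, Kif20b, Kif23 and Kif4 reached between 36.4 and 116.8 CPM in their highest cell. Kif2c, Kif14 and Kifc1 reached 43.2, 18.7 and 10.01 CPM, all in BRP541, and Kif2b had 3 counts in all, in 2 F cells.

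BRP541 stood out among the columns BRP528 to BRP543. It expressed 12 of the 13 mitotic kinesins with a sum of 424.0 CPM, and all 13 of a list of proliferation genes with a sum of 826.7 CPM. Kif15 was at 116.8 CPM there, Kif22 at 52.3, Kif2c, a depolymerase at the centromere, at 43.2 and Kifc1, which clusters spindle poles, at 10.01. BRP541 held 79.3% of all Kif2c exonic counts and 176 of the 220 Kifc1 counts. The cell with the next highest sum was BRP529, with 8 mitotic kinesins, 236.4 CPM of them and 774.6 CPM of proliferation genes. BRP541, BRP529 and BRP528 also held 852.5, 1118 and 695.0 CPM of oligodendrocyte lineage markers, against a median of 22.4 CPM in the 12 columns. All 8 columns BRP564 to BRP572 held 438.9 to 1177 CPM of these markers, of which Olig1 was 431.5 to 1048. The neuron markers of BRP541 and BRP529 summed to 6765 and 4737 CPM, and their astrocyte markers to 547.1 and 2026 CPM. The part of other cells' RNA was not tested. BRP535 and BRP538 expressed none of the mitotic kinesins at 1 CPM, with sums of 1.36 and 1.17 CPM. The proliferation list summed to 88.6 to 783.2 CPM in BRP564 to BRP572, with 10 to 12 of 13 genes per cell expressed, to 6.38 to 826.7 CPM in BRP528 to BRP543 with 2 to 13, and to 0 to 83.2 CPM in F with 0 to 2.

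**Figure D4:**
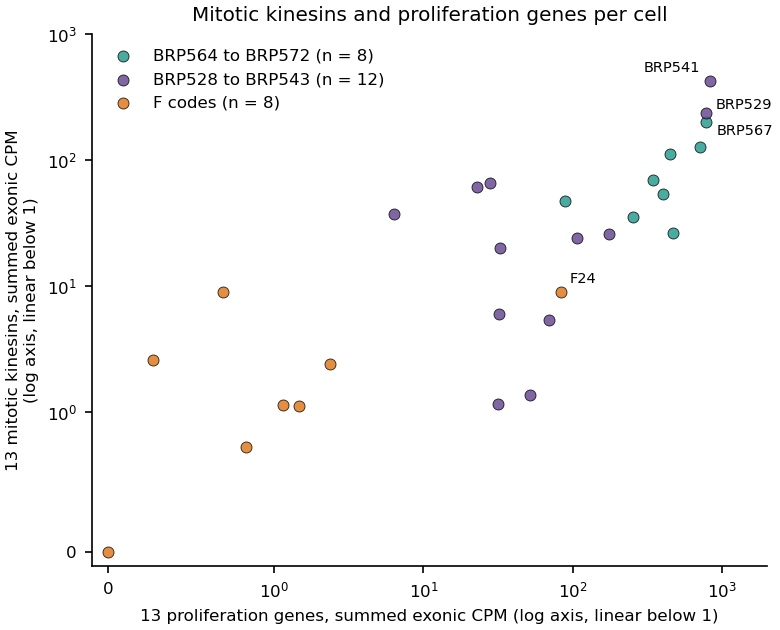
Summed exonic CPM of the 13 mitotic kinesins (vertical) against that of 13 proliferation genes (horizontal) for each of 28 cells, coloured by run of column codes, both on log axes that are linear below 1. BRP541 (424.0 against 826.7 CPM) and BRP529 lie at the upper right beside the columns BRP564 to BRP572, and all F cells but F24 lie at the lower left.

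Within the columns BRP564 to BRP572, mitotic kinesin and proliferation sums had rho = 0.595 and, on a log2 scale, r = 0.560 (n = 8). Over BRP528 to BRP543 they had rho = 0.210 and r = 0.521 (n = 12), where the 2 cells just named lie far from the rest. Transport kinesin sums had rho = -0.119 and -0.0769 against the proliferation list. Both sums of a cell share its exonic total.

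Kinesins with other roles held mostly low counts, apart from Kif2a. Kif2a was at 26.6 to 76.4 CPM in BRP564 to BRP572 (median 56.4), at 38.2 to 184.2 in BRP528 to BRP543 (median 101.8) and, in F, at 977.6 in F7, 5.78 in F2 and under 1 CPM in the other 6. It shares 1229 exon bases with Dimt1 on the other strand, and the strand used in counting is not given in the sources used here. Kif9, a ciliary kinesin, was at 1.38 to 41.1 CPM in all 8 cells of BRP564 to BRP572 (median 17.5), was expressed in 3 of 12 cells of BRP528 to BRP543 with up to 20.7 CPM, and in F6 at 2.08 CPM. Kif7, the ciliary kinesin of Hedgehog signalling, was at 1.17 to 14.9 CPM in all 8 cells of BRP564 to BRP572 and at 0 in 11 of 12 cells of BRP528 to BRP543, the other having 1 count. Its single value above 0 in F was 19.4 CPM in F24. Kif7 shares 877 exon bases with 9330171B17Rik on the other strand. Its close relative Kif27, also of the cilium, was expressed in 6 of 8 cells of BRP564 to BRP572, in 2 of 12 of BRP528 to BRP543 and in no F cell. Kif26a, the relative of Kif26b, was expressed in 3 cells with up to 5.66 CPM, Kif6 in 4 with up to 23.7 CPM and Kif19a in BRP528 at 7.72 CPM. The third place by median in this class was a tie at 0 CPM, so no gene was taken for it.

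Kif26b (chr1:178529125-178939200, plus strand) had 14.7 kb of exon and 395.4 kb of intron in GENCODE, the longest introns of the family. Its exonic counts, 4107 in all, came from 8 cells. It was at 105.2 CPM in BRP566, 50.4 in BRP569, 21.5 in BRP572 and 19.0 in BRP571, and at 0 in the other 4 columns of that run. In BRP528 to BRP543 it was at 46.1 CPM in BRP538, at 0.0450 to 0.123 CPM in BRP528, BRP536 and BRP539, and at 0 in the other 8, and it was at 0 in all F cells. Its intronic counts, 4857 in all, came from all 28 cells. They were 9 to 426 per cell in BRP564 to BRP572 (median 21), 6 to 1022 in BRP528 to BRP543 (median 217) and 1 to 141 in F (median 21). In 20 of the 28 cells Kif26b thus had intronic counts and no exonic count. BRP566, the cell with most exonic CPM, had 118 intronic counts, while BRP539, with most intronic counts, had 0.123 exonic CPM. Per kb of intron it drew 12.3 counts, against a median of 24.2 over 16031 genes with an intronic count. A shared stretch of 909 exon bases belongs also to Gm16564 on the other strand.

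Over all kinesins, exons and introns were seen together in 47.2% of 1092 pairs of a gene and a cell, exons alone in 15.4%, introns alone in 23.5% and neither in 13.9%. For all genes in both tables these shares were 27.1%, 18.7%, 20.2% and 33.9%. Transport kinesins had introns alone in 12.8% of pairs, mitotic kinesins in 25.3% and other kinesins in 39.6%. Among the 34 kinesins with an intronic count, intronic counts followed intron length with rho = 0.598, against 0.715 over all 16031 genes, which describes genes and not replicates. In each cell, introns made up 4.99% to 16.0% of kinesin counts in BRP564 to BRP572 (median 10.3%), 3.76% to 20.5% in BRP528 to BRP543 (median 9.67%) and 3.36% to 38.2% in F (median 23.99%, or 24.5% without F12). For all genes the medians were 8.75%, 15.7% and 50.4%. The kinesin shares include Kif5c, Kif3b, Kif18a, Kif18b and Kif12, which had 0 intronic counts in every cell. These genes gave 26, 24, 17, 9 and 2 of the 168 kinesin pairs with exons alone. Over all cells together the median intronic share of kinesin counts was 10.6%, and 13.1% without these genes. The share without them was not taken for each run.

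Kif1b had the most intronic counts, 45433 or 17.6% of its total, in all 28 cells. Kif13b came next with 19626 intronic counts against 404 exonic ones, so that 98.0% of its counts were intronic. They were in every cell, with 8265 in BRP534, 6344 in F7 and 2 to 850 in the other 26 cells, and in 17 cells Kif13b had intronic counts only. Kif3c, a kinesin-2 of neurons, had 14883 intronic counts, of which F6 held 58.9%. Kif2a and Kif21a had 14584 and 13609 intronic counts, beside 42956 and 25777 exonic ones. Kif6, with 288.7 kb of intron, had 12500 intronic counts in all 28 cells and 1053 exonic counts in 11 cells. Kif24, a centriolar depolymerase that was expressed in no cell, had 1861 intronic counts in 28 of 28 cells against 21 exonic ones.

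**Figure D5:**
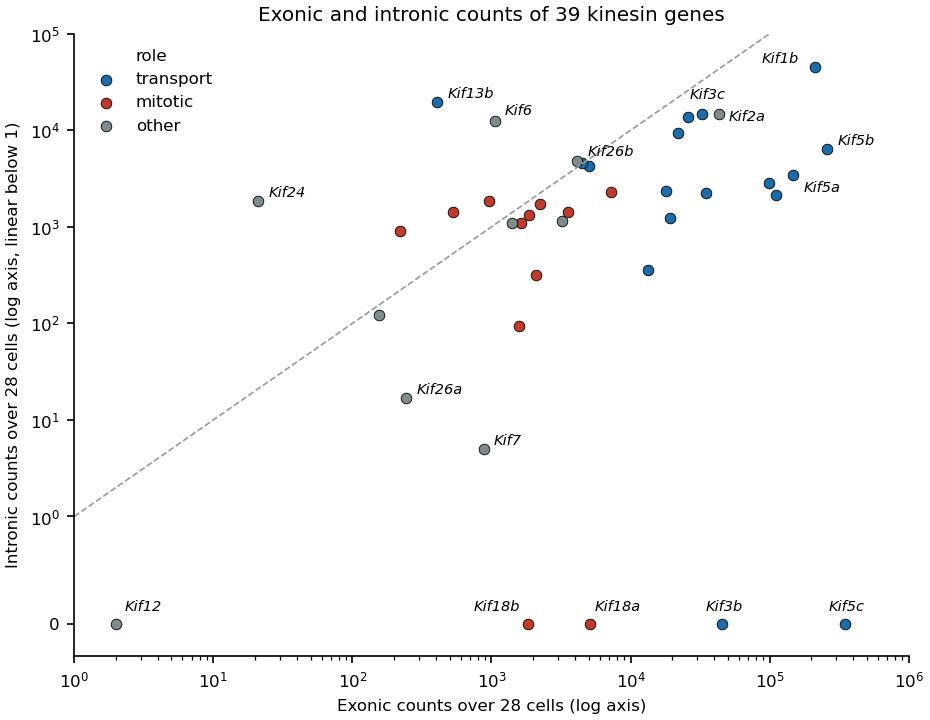
Intronic against exonic counts, summed over the 28 cells, for the 39 kinesin genes in both tables, coloured by role, on log axes with the vertical one linear below 1 and a dashed line of equal counts. Kif13b, Kif6 and Kif24 lie above the line, and Kif5c, Kif3b, Kif18a, Kif18b and Kif12 lie at 0 intronic counts.

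Of the 39 kinesins in the intronic table, 5 (12.8%) had 0 intronic counts in every cell, against 15.5% of all genes there. They were Kif5c, with 350238 exonic counts the most of the family, Kif3b with 45794, Kif18a with 5134, Kif18b with 1835 and Kif12 with 2. Among kinesins with introns and at least 1000 exonic counts it was 4 of 30 (13.3%), and among all such genes 9.88% of 10716. The introns of Kif5c add up to 148.3 kb. Along the plus strand of chr2 it lay within 100 consecutive genes with introns that had 0 intronic counts (chr2:37266951-80400525), of which 42 had at least 10000 exonic counts. Kif3b and Kif18a lay within another such stretch of the plus strand (chr2:86120223-168978906), with 396 genes, and Kif18b within a stretch of 323 genes on the minus strand of chr11. The levels of these 4 genes were therefore read from exons only, and the cause of the stretches was not tested.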

How the data were processed

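The authors deposited raw counts as whole numbers, 1 table for exons and 1 for introns. Per the labels, cultured cells were prepared with a modified TruSeq Nano DNA kit and sequenced on a NextSeq, and interneurons with a TruSeq Stranded kit and a HiSeq instrument. The submitters' processing notes name bcl2fastq 2.17, STAR 2.4.0 and mm10, and the tool, annotation and strand of the counting are not given in the sources used here. Exonic totals were 838343 to 26770944 per cell, and their number of counts limits the precision of low genes.

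All 28 columns were used, and 28 of them match no sample label, so levels are given by cell and the groups of the labels were not compared. CPM divides a gene's exonic counts by the exonic total of its cell. CPM per kb divides this by the merged exon length in GENCODE M21 (GRCm38), matched by symbol for all 40 kinesins. Near copies cannot be told apart where reads were split: Kif4-ps had 0 counts and Kifc5b 69. Promoter windows were those of RefSeq. Wilson intervals were taken at 95%. Genes described in full were Kif26b, the Kif5 genes, the 3 members of each role with the highest median CPM, and the members with most or with no intronic counts. The members, roles, partner and marker lists were chosen with earlier results of these data known, so they support nothing by themselves.

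Alternatives were other limits for a gene to be expressed, edgeR TMM factors, DESeq2 size factors, thinning, pooling and each cell left out. Software was edgeR 4.0.16 and DESeq2 1.42.0 in R 4.3.3, and pandas 2.3.3, numpy 2.4.6 and scipy 1.17.1 in Python 3.11.15. On counts simulated from the table of 23453 genes, all 200 genes checked in each of 28 cells were called rightly as expressed or not. These genes were drawn from those with a mean well above the limit, and those set as not expressed had no counts. Right calls were thus nearly fixed in advance, and the check tells nothing of genes near 1 CPM, such as Kif22 and Kif20a by their medians.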

Additional observations from a re-analysis of the deposited data

How the results depend on the processing

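Over the 28 cells together the median number of expressed transport kinesins was 13 and that of mitotic kinesins 3, kinesins took a median of 0.269% of exonic counts, Kif5a 3.07% of Kif5 counts, introns 10.6% of kinesin counts, and 16 kinesins were expressed in at least 14 cells. A value was taken to have moved when it changed by more than the SD over the 28 cells, and a count when it changed by more than 1.5 times. With 1 count as the limit, the mitotic number rose to 7 and the count of kinesins in at least 14 cells to 27. Other limits, TMM and DESeq2 factors, thinning, pooling and lengths, each run only for the values it applies to, moved none past those bounds. The bounds are wide because the SDs were taken over mixed runs of cells (31.0 percentage points for the Kif5a share, 3.21 for the mitotic number). Within them, pooling all cells raised the Kif5a share to 19.6% and a limit of 5 CPM lowered the mitotic number to 1.

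The following settings were chosen after the data were examined. With the F columns only, the transport number was 7, the count of kinesins in at least 4 of 8 cells was 6, the Kif5a share 56.1% and the intronic share 23.99%. Without F12 these F values were 7, 6, 13.7% and 24.5%, so the Kif5a share of the F columns rests on F12. With BRP564 to BRP572 only, the mitotic number was 6.5 and the count in at least 4 of 8 cells 28. With F12 left out of the 28 cells, none of the 6 values over all cells moved past the bounds. Leaving out each cell in turn gave transport numbers of 13 to 13, mitotic numbers of 3 to 3, kinesin shares of 0.265% to 0.274%, Kif5a shares of 2.91% to 3.24%, intronic shares of 9.96% to 11.2%, and 15 to 16 kinesins.

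No paired analysis was possible because the columns carry no replicate number and no test was made. At the depth of F16, 3 counts are 3.578 CPM, so absence of a low kinesin was not detectable there.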
